A study of Homo sapiens with 6 samples.

Results

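The MYC network is a small family of transcription factors that bind DNA in pairs and read the same short element, the E-box CACGTG. Its 10 genes described here are MYC, MYCN and MYCL, their obligate partner MAX, the MAX-binding repressors MXD1, MXD3, MXD4, MXI1 and MNT, and the MAX-like factor MLX. They were chosen by symbol from the 60546 genes of a deposited RNA sequencing table. The table holds 6 libraries of HCT-116, an established human colon carcinoma cell line. Of these, 3 came from HCT-116-PMSCV-GOLPH3 cells, made to overexpress the Golgi protein GOLPH3, and 3 from HCT-116-PMSCV-Vector cells, which carried the empty viral vector. All 6 shared the stably introduced viral vector, the same serum-containing Dulbecco's medium and the label wild type for the parental genotype. The methods describe cells of different generations of each line, and nothing states that separate lines were made. The spread between libraries may therefore be partly technical. On that reading the SDs and p-values below describe the spread between cultures of a line. A group difference then cannot be told apart from a difference between individual lines. The titles also carry a number after the letter P, not explained in the labels, which is 8, 12 and 13 for GOLPH3 replicates 1, 2 and 3 and 12, 11 and 13 for Vector replicates 1, 2 and 3.

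MYC proteins paired with MAX recruit coactivators and raise the transcription of genes for ribosomes, nucleotides and the cell cycle. MXD proteins and MNT compete for MAX and bring the SIN3 and histone deacetylase corepressors to the same sites, so that the amounts of activator and repressor are usually considered together. In colon epithelium MYC is a well-known target of Wnt signalling, and in most colorectal carcinomas it is abundant. MLX is the partner of the glucose-sensing factors MondoA and ChREBP, and it links the network to metabolism.

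Because the E-box is the element that the network reads, the promoters of the member genes were searched for it. In RefSeq promoters of GRCh38.p14, taken from 250 bases before to 50 bases after each transcript start, 9 of the 10 genes had an entry, with 12 promoters between them. MYC had no entry, so its promoter was not searched for this or any other motif. The letters CACGTG, which read the same on both strands, stood in the promoters of 3 of these 9 genes, MXD4, MNT and MLX. Of all 35116 promoters in the table, 2548 (7.26%) held them. The windows below show that element in capitals within its sequence, on the gene's own strand, at chr4:2262330-2262359 (minus strand) for MXD4, chr17:2401236-2401265 (minus strand) for MNT and chr17:42567038-42567067 (plus strand) for MLX.
MXD4: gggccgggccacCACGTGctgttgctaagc
MNT: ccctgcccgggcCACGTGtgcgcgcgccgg
MLX: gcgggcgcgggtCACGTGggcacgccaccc
The first base of the element lay 238 bases before the start of the transcript in MXD4, 193 in MNT and 50 in MLX. A match is a description of the letters and does not show binding.

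The upstream sequence of MYCN is printed because MYCN was the member whose level differed between the groups. It covers 250 bases of the plus strand at chr2:15940300-15940549 and ends just before the RefSeq transcript start. The capitals mark GCGCGAAA, the reverse complement of the E2F-type motif TTTCGCGC, at 172 bases before the start. Searched on both strands, that motif stood in 181 of the 35116 promoters (0.515%) and in no other member promoter of the table, and it shares no letters with an E-box here.
MYCN: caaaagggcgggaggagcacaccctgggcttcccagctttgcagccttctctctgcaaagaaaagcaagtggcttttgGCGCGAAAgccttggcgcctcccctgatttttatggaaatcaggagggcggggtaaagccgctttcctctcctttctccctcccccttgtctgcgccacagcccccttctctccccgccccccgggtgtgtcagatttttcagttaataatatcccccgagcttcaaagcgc

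The deposited values are read counts divided by a size factor for each library and are called normalized reads here. The recovered reads totalled 15708846 to 21900764 per library. The detection limit was set at 3 reads, or 2.47 to 3.29 normalized reads depending on the library, a limit that covers counting error only. GOLPH3 itself had 1629.5, 1272 and 1383 normalized reads in GOLPH3 replicates 1 to 3 and 1968, 1892 and 1472 in Vector replicates 1 to 3, a log2 difference of -0.31 (standard error 0.27, limma adjusted p = 0.609). The GOLPH3 transcript was therefore not detectably higher where the label names it, and the groups are called GOLPH3 and Vector libraries by their labels throughout. Whether the introduced GOLPH3 sequence was counted, and whether the labels match the cells, was not tested, so every signed difference rests on the labels. Of 18 colon epithelial marker genes tested, 7 were higher and 0 lower in the GOLPH3 libraries at a limma adjusted p under 0.05, where 0.953% of all genes tested were higher, with summed levels of 87653 to 162286 normalized reads there and 40559 to 47378 in the Vector libraries. KRT19, CLDN4 and CLDN3 led them, with log2 differences of 1.92, 2.06 and 2.65 (limma adjusted p = 0.0044, 0.0071 and 0.00873). With 1 library left out, 2 (without GOLPH3 replicate 3) to 8 of them were higher. The intestinal markers KRT20 and CDX1 were at 0 to 1 read in every library, while CDX2, the intestinal transcription factor, had 184 to 897 normalized reads and a log2 difference of -0.52 (limma adjusted p = 0.636).

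Of the 10 members, MYCN alone had a called difference between the groups, and it was lower in the GOLPH3 libraries. It had no read there and passed the filter on low values only through the Vector libraries. It could thus be called in this direction alone. The call was lost without GOLPH3 replicate 3, and MYCN was not tested when any Vector library was left out. In fits that kept it in, chosen after the data were seen, the call was also lost without Vector replicate 1 or 3. The 9 others had adjusted p-values of 0.416 or more and groups that overlapped, where 22% of all genes had groups that did not. limma was fitted to log2(normalized reads + 1) of the 26536 genes that reached 1 normalized read in 3 or more libraries. An adjusted p under 0.05 was called, and all 10 members were tested. Among all genes tested 5.07% were called, 4.12% lower and 0.953% higher, so that 1 call in 10 members is to be read against that background. The log2 difference was above 0 in 7 members and below 0 in 3. Its median was 0.17, where the median of all genes tested was 0.02. RNA of whole cultures was measured, so fewer cells of a kind and less RNA per cell cannot be told apart in any of these differences.

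**Figure D1:**
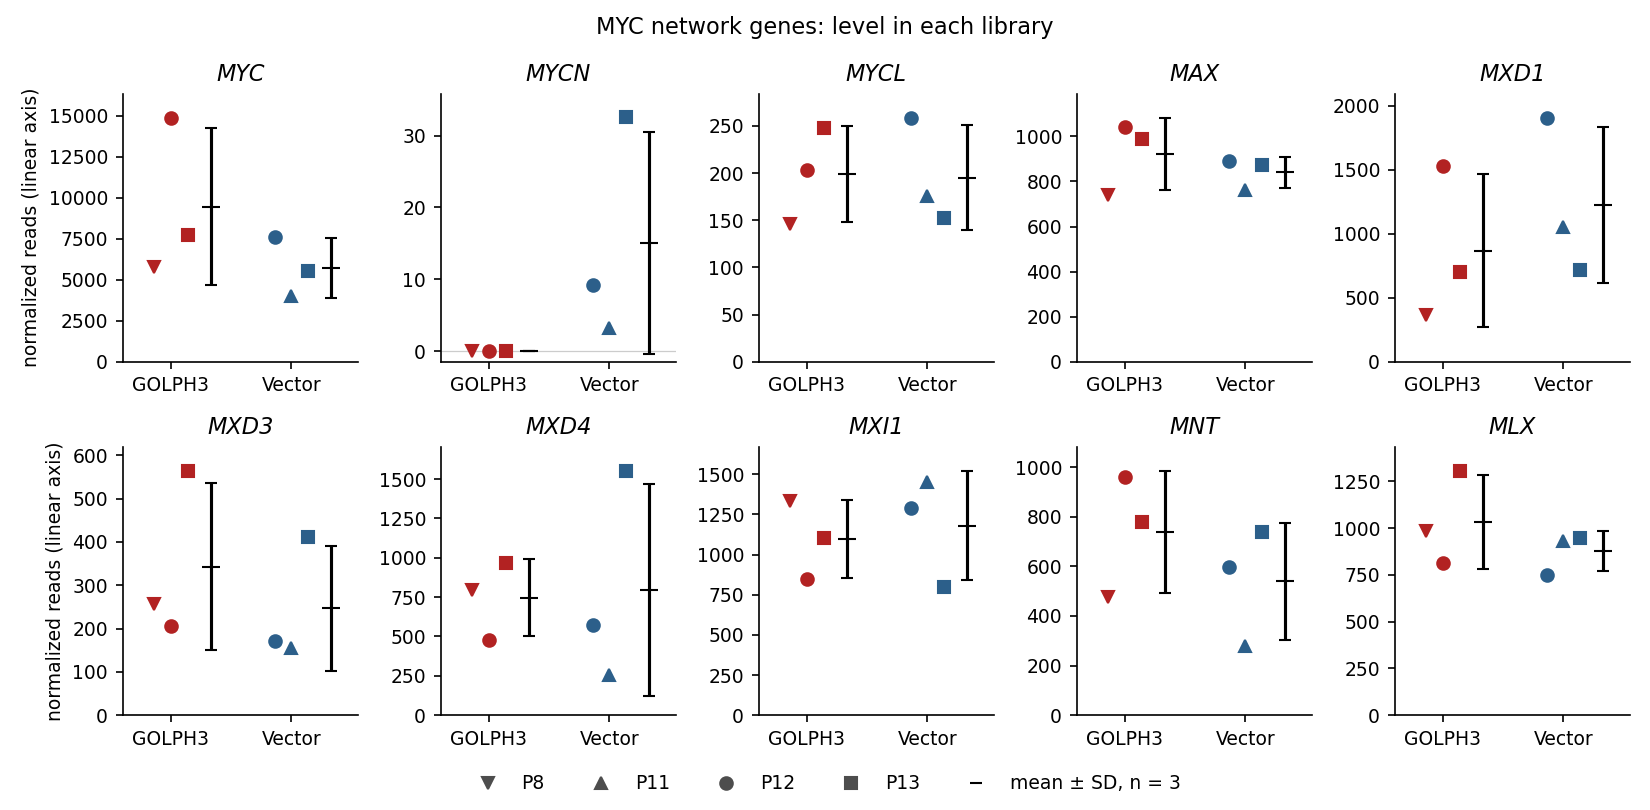
Normalized reads (linear axes from 0) of each member in the 6 libraries, with the marker shape giving the P number and the bar the mean ± SD of 3 libraries. The 3 GOLPH3 libraries sit at 0 for MYCN, and for the other members the points of the groups overlap.

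MYC (ENSG00000136997, chromosome 8, 127735434 to 127741434, plus strand, GENCODE 29 on GRCh38) encodes c-MYC, the form used by most dividing cells. It had 5775, 14861 and 7724 normalized reads in GOLPH3 replicates 1, 2 and 3. In Vector replicates 1, 2 and 3 it had 7611, 4008 and 5561. GOLPH3 replicate 2 stood far above the other libraries, and Vector replicate 1 lay between GOLPH3 replicates 1 and 3, so that the groups overlapped. The GOLPH3 mean was 9454 ± 4783 and the Vector mean 5727 ± 1807 (SD, n = 3 each), a ratio of 1.65. The log2 difference of 0.66 (standard error 0.38, 95% confidence interval -0.18 to 1.49) did not pass the threshold (limma adjusted p = 0.416).

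The MYC value leaned on GOLPH3 replicate 2, without which the log2 difference was 0.27 (limma adjusted p = 0.798). Within the P12 libraries, which include that replicate, the difference was 0.97, and within the P13 libraries it was 0.47. With the P number as a block MYC passed the threshold at a log2 difference of 0.72 (limma adjusted p = 0.00562). That fit rests on the P12 and P13 libraries and has 1 residual degree of freedom, and in it 22.9% of all genes tested were called, 9.93% of all genes tested as higher and 13% as lower in the GOLPH3 libraries.

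MYCN (ENSG00000134323, chromosome 2, 15940564 to 15947007, plus strand) encodes N-MYC, known from neural and embryonic tissue and amplified in neuroblastoma. It had no read in any GOLPH3 library. Vector replicates 1, 2 and 3 held 9, 3 and 38 reads, or 9.26, 3.29 and 32.6 normalized reads. The groups did not overlap, and the Vector libraries spread over a 9.92-fold range, with replicate 2 at the detection limit of 3 reads. In 12.8% of all genes tested the GOLPH3 libraries lay wholly below the Vector libraries, and 2.12% had 0 reads in each GOLPH3 library.

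The mean of MYCN in the Vector libraries was 15.1 ± 15.5 normalized reads (SD, n = 3). Taking 3 reads as the limit of each GOLPH3 library, MYCN was at least 4.67-fold lower in the GOLPH3 group. Without Vector replicate 3 the Vector mean was 6.28 and the bound 1.95-fold. The fitted log2 difference was -3.51 (standard error 0.78, 95% confidence interval -5.22 to -1.80, limma adjusted p = 0.0209). The fitted size depends on the value added before the logarithm, being -6.66 with 0.1 in place of 1 and -6.39 by DESeq2, and is no bound. With 1 added, the pair at P12 differed by -3.36 and the pair at P13 by -5.07 on the log2 scale.

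The MYCN call rests on few reads and on single libraries. Without GOLPH3 replicate 3 the limma adjusted p was 0.0676. When a Vector library was left out, MYCN fell below the filter and was not tested. With the gene kept in, an alternative chosen after seeing the data, the limma adjusted p was 0.0638 without Vector replicate 1, 0.00723 without replicate 2 and 0.0886 without replicate 3. DESeq2 on the recovered reads also called it (adjusted p = 0.00152, where 6.05% of genes were called lower), while edgeR's own filter left it untested. MYCNOS, the antisense neighbour of MYCN, shares 98 exonic bases with it and had a single read, in Vector replicate 3. Whether the counting used strand is not given in the sources used here.

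Other genes were lower in the same libraries as MYCN. A list of 20 HEK293-like markers, genes known from an embryonic kidney line with neural features, was put together with earlier results of these libraries known and is given here as a description. Of its 18 genes tested, 12 were lower and 0 higher in the GOLPH3 libraries, where 4.12% of all genes were lower. Without Vector replicate 1, 2 or 3 these were 3, 4 and 3 genes, and genes read in Vector libraries alone then no longer passed the filter. Its summed level was 4448 to 6070 normalized reads in the GOLPH3 libraries. In Vector replicates 1, 2 and 3 it was 13823, 9221 and 22472, so replicate 2 was lowest and replicate 3 highest, as for MYCN. The share of all genes with this order was not counted. IRS4, HOXD13, NEFM, UCHL1, HAND1 and SALL1 had no read in any GOLPH3 library. IRS4 had 1412, 1006 and 4831 normalized reads in Vector replicates 1 to 3. CRABP2 and ZIC2, also on the list, were present in all 6 libraries, at 2031 to 4459 and 312 to 1780 normalized reads.

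Of 16 mesenchymal markers tested, 8 were lower and 0 higher (4.12% of all genes were lower), on a list also chosen with earlier results known. With 1 library left out 5 to 9 were lower, 5 of them without Vector replicate 1 or 3. Genes read in Vector libraries alone no longer passed the filter when a Vector library was left out. The sums were 2011 to 2198 against 4820 to 9212 normalized reads. Of the 16, 3 had a log2 difference above 0 and 13 below. At an unadjusted limma p under 0.05, 1 was higher and 11 were lower. The GOLPH3 libraries lay wholly above the Vector libraries in 2 and wholly below in 9, against 9.2% and 12.8% of all genes tested. CDH2 and VIM are on this list and on the HEK293-like list, so the counts and sums of the lists are not separate. ZEB2, TCF4 and CDH2 had the smallest p-values, with log2 differences of -8.42, -7.63 and -8.03 (limma adjusted p = 3.13e-06, 6.48e-06 and 7.35e-06). ZEB2 and TWIST2 were at 0 in the 3 GOLPH3 libraries. A gene at 0 there can pass the filter only through the Vector libraries and can be called only as lower. The part of these markers in the MYCN difference was not tested.

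MYCL (ENSG00000116990, chromosome 1, 39895426 to 39902256, minus strand) encodes L-MYC, first described in lung cancer. It had 146, 203 and 248 normalized reads in GOLPH3 replicates 1 to 3 and 258, 175 and 152 in Vector replicates 1 to 3. The groups covered nearly the same range. Its log2 difference was 0.03 (standard error 0.36, 95% confidence interval -0.76 to 0.82, limma adjusted p = 0.98). The sign was not stable, at -0.35 within P12 and 0.70 within P13.

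MAX (ENSG00000125952, chromosome 14, 65006174 to 65102695, minus strand) is the partner through which MYC, MXD and MNT proteins bind DNA. It had 742, 1039.8 and 986 normalized reads in GOLPH3 replicates 1 to 3. The Vector replicates held 890.3, 762 and 871. MAX was the steadiest member, with a 1.40-fold range over the 6 libraries. Its log2 difference was 0.12 (standard error 0.28, 95% confidence interval -0.49 to 0.73, limma adjusted p = 0.865).

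Of the 5 genes for MAX-binding repressors, 0 were called in either direction, where 5.07% of all genes tested were. MXD1 (ENSG00000059728, chromosome 2, 69897688 to 69942945, plus strand) encodes MAD1, which rises when many cell types leave the cycle and differentiate. It had 369, 1530.5 and 706 normalized reads in GOLPH3 replicates 1, 2 and 3. In the Vector replicates it had 1905, 1053 and 720.02. The P12 library was the highest in each group, and the lowest and highest of the 6 were 5.16-fold apart. MXD1 differed by -0.62 on the log2 scale (standard error 0.49, 95% confidence interval -1.69 to 0.46, limma adjusted p = 0.569). The difference was -0.12 without GOLPH3 replicate 1 and -1.145 without GOLPH3 replicate 2 (limma adjusted p = 0.227). MXD1 shares 237 exonic bases with SNRNP27 on the same strand.

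MXD3 (ENSG00000213347, chromosome 5, 177301461 to 177312757, minus strand) differs from the other MXD genes in being expressed in cycling cells. It had 258, 207 and 564 normalized reads in GOLPH3 replicates 1 to 3 and 172, 156 and 412 in Vector replicates 1 to 3. Here the P13 library was the highest of each group. MXD3 differed by 0.48 on the log2 scale (standard error 0.47, 95% confidence interval -0.54 to 1.50, limma adjusted p = 0.654), by 0.053 without GOLPH3 replicate 3 and by 0.92 without Vector replicate 3. Its exons overlap 1158 bases of PRELID1 on the opposite strand and 926 of RAB24 on its own, and PRELID1 was more abundant than MXD3, at 687 to 2850 normalized reads, so the level of MXD3 is uncertain.

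MXD4 (ENSG00000123933, chromosome 4, 2247432 to 2262294, minus strand) had 795, 481 and 967 normalized reads in GOLPH3 replicates 1 to 3. The Vector replicates 1 to 3 had 575, 257 and 1551, and thus held both the lowest and the highest library, 6.02-fold apart. Its log2 difference of 0.23 (standard error 0.54, 95% confidence interval -0.95 to 1.40, limma adjusted p = 0.868) changed sign without Vector replicate 2, where it was -0.40. Within P12 and P13 it was -0.26 and -0.68.

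MXI1 (ENSG00000119950, chromosome 10, 110207605 to 110287365, plus strand) encodes a MAX interactor that has been studied as a tumour suppressor. It had 1334, 849 and 1106 normalized reads in GOLPH3 replicates 1 to 3 and 1288, 1453 and 798 in Vector replicates 1 to 3. Neither group was consistently higher. The log2 difference was -0.08 (standard error 0.32, 95% confidence interval -0.78 to 0.61, limma adjusted p = 0.922), and the pairs at P12 and P13 differed in opposite directions, by -0.60 and 0.47.

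MNT (ENSG00000070444, chromosome 17, 2384060 to 2401118, minus strand) encodes the most widely expressed MYC antagonist. It had 476, 959.8 and 780.3 normalized reads in GOLPH3 replicates 1 to 3 and 599, 280.5 and 739 in Vector replicates 1 to 3. Vector replicate 2 was the lowest library, without which the log2 difference fell from 0.51 (standard error 0.41, 95% confidence interval -0.38 to 1.39, limma adjusted p = 0.57) to 0.09.

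MLX (ENSG00000108788, chromosome 17, 42567068 to 42573239, plus strand) pairs with some MXD proteins and MNT as well as with MondoA and ChREBP. It had 982, 812 and 1304 normalized reads in GOLPH3 replicates 1 to 3. Vector replicates 1 to 3 had 751, 933 and 947, all within or just below the GOLPH3 range. The log2 difference was 0.22 (standard error 0.29, 95% confidence interval -0.42 to 0.85, limma adjusted p = 0.758). MLX shares 770 exonic bases with PSMC3IP on the opposite strand, which had 176 to 462 normalized reads.

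**Figure D2:**
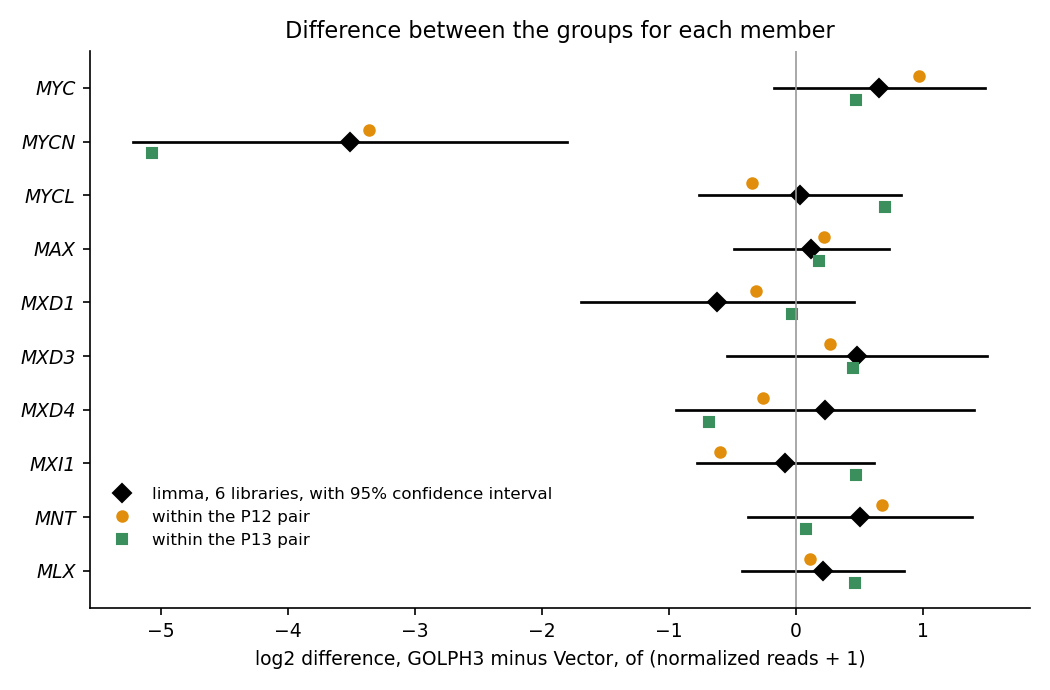
Log2 difference (GOLPH3 minus Vector, normalized reads + 1) of each member from limma over 6 libraries with its 95% confidence interval, and within the P12 and P13 pairs, which have no error. The interval of MYCN ends at -1.80, and those of the other members include 0.

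The intervals of the 9 members that were not called reached from -1.69 (MXD1) to 1.50 (MXD3) on the log2 scale.

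Levels were compared between genes after division by exon length, as normalized reads per kilobase of exon. The length joins all annotated exons of a gene and can exceed that of the transcripts present, so ratios between genes depend on the annotation. MYC was first in each of the 6 libraries, at 3150 ± 1594 (SD, n = 3) in the GOLPH3 group and 1908 ± 602 (SD, n = 3) in the Vector group. That was 13-fold above the next member, MLX, in the GOLPH3 group and 7.45-fold above MXI1 in the Vector group. In the GOLPH3 group MLX (243), MXI1 (238), MAX (208), MXD1 (137), MXD4 (106), MNT (84.6), MXD3 (66.5) and MYCL (39.3) followed in mean level. The order in the Vector group was MXI1 (256), MLX (206), MXD1 (193), MAX (189.9), MXD4 (113), MNT (61.8), MXD3 (47.8), MYCL (38.5) and MYCN (5.79). Between MLX or MXI1 and MYCL no 2 neighbours in either order differed by more than both of their SDs. MYCL and MYCN did, in both groups, and MYCN was the lowest member in each library.

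The MYC family is thus almost all MYC at the level of transcripts. MYC gave 97.4% to 99.2% of the summed MYC, MYCN and MYCL level per kilobase in every library. The family sum was 1953, 4992 and 2623 normalized reads per kilobase in GOLPH3 replicates 1 to 3 and 2591, 1372 and 1896 in Vector replicates 1 to 3. The sum of the 5 repressor genes was far steadier, at 565, 644 and 687 in the GOLPH3 replicates and 763, 579.9 and 671 in the Vector replicates. Their means were 632 ± 61.9 (SD, n = 3) and 671 ± 91.6 (SD, n = 3), a difference below either SD.

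The ratio of the MYC family to the MXD and MNT sum was 3.46, 7.76 and 3.82 in GOLPH3 replicates 1 to 3. It was 3.40, 2.37 and 2.83 in Vector replicates 1 to 3, so the GOLPH3 libraries lay above the Vector libraries. The gap between GOLPH3 replicate 1 and Vector replicate 1 was small beside the spread within the GOLPH3 group. The mean ratios were 5.01 ± 2.39 and 2.87 ± 0.52 (SD, n = 3 each). No test was made on this ratio, whose members were chosen with earlier results known. Relative to MAX, the level of MYC per kilobase was 11.5, 21.1 and 11.6 in GOLPH3 replicates 1 to 3 and 12.6, 7.76 and 9.42 in Vector replicates 1 to 3, and these groups overlapped.

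**Figure D3:**
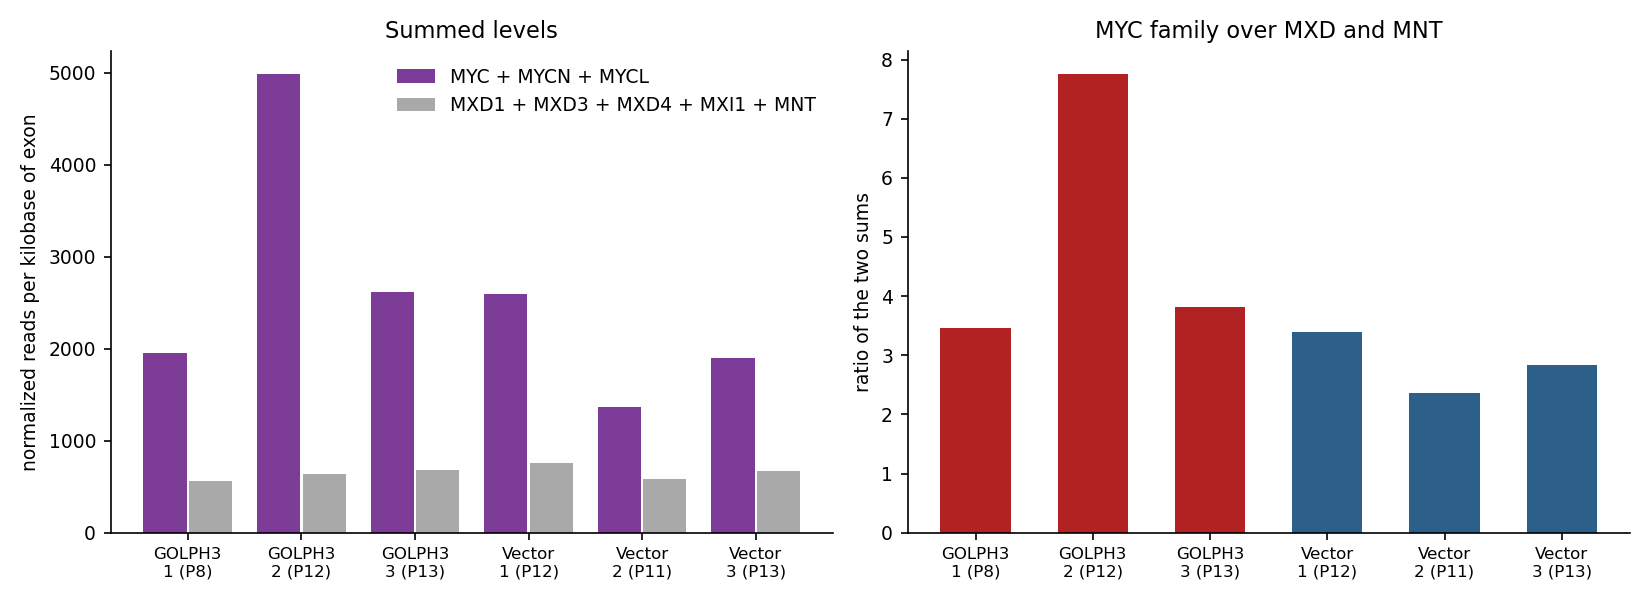
Left, summed normalized reads per kilobase of exon of the MYC family and of the 5 MXD and MNT genes in each library, and right, the ratio of the sums. The repressor sum stays between 565 and 763, and the ratio is highest, at 7.76, in GOLPH3 replicate 2.

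The steady repressor sum was made up differently from library to library. MXI1 took from 25.8% (Vector replicate 3) to 54.4% (Vector replicate 2) of it. MXD1 took from 10.3% (GOLPH3 replicate 1) to 39.3% (Vector replicate 1), and MXD4 from 6.29% (Vector replicate 2) to 32.7% (Vector replicate 3). MNT held 5.54% to 17.1% and MXD3 4.37% to 15.9%. The P number ran with this make-up in both groups. MXD1 was higher at P12 than at P13 by 1.12 in the GOLPH3 and 1.40 in the Vector libraries on the log2 scale. MXD3 was lower at P12 by -1.44 and -1.26, and MXD4 by -1.01 and -1.43. A change of at least 1 in the same direction in both groups was thus seen in 3 of the 10 members, and in 7.35% of all genes tested. MXI1 went opposite ways, by -0.38 and 0.69, and MAX changed little, by 0.08 and 0.03. These contrasts have 1 library at each P number and group and carry no test.

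**Figure D4:**
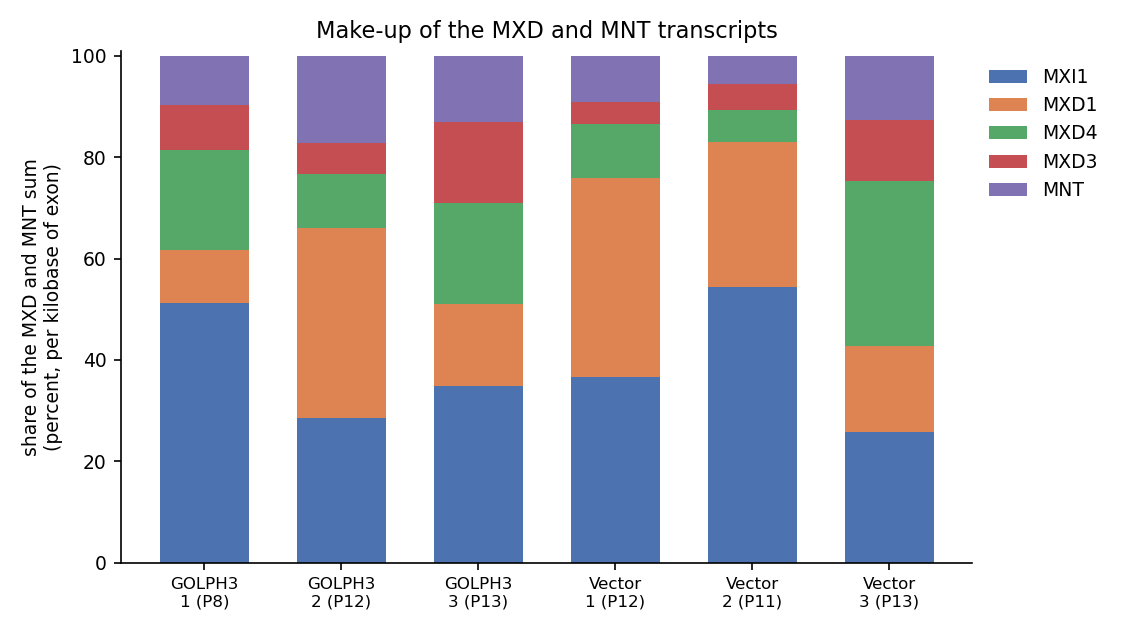
Share (percent) of each of the 5 MXD and MNT genes in their summed level per kilobase of exon, by library. MXD1 takes 37.4% and 39.3% in the P12 libraries and 16.2% and 16.9% in the P13 libraries.

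The other factors that pair with MAX or MLX were MGA, a large MAX-binding repressor, MLXIP, which encodes MondoA, and MLXIPL, which encodes ChREBP. Of these 3 genes, 0 were called in either direction, where 5.07% of all genes tested were. MLXIPL had 1618, 1725 and 2206 normalized reads in GOLPH3 replicates 1 to 3 and 875, 581 and 1137 in Vector replicates 1 to 3, and the groups did not overlap. Its log2 difference was 1.14 (standard error 0.32, limma adjusted p = 0.0634), and DESeq2 gave an adjusted p of 0.0321 (2.63% of genes were called higher there). Blocking on the P number gave 0.97, which passed the threshold (limma adjusted p = 4.06e-05). That fit has 1 residual degree of freedom and called 9.93% of all genes tested as higher. The pairs it rests on differed by 0.98 at P12 and 0.96 at P13. MLXIP had 3338 ± 202 against 2410 ± 398 normalized reads (SD, n = 3), also without overlap (log2 difference 0.48, limma adjusted p = 0.388). Groups with all GOLPH3 libraries above made up 9.2% of all genes tested. MGA had 1363 ± 384 against 1628 ± 528 (SD, n = 3), with a log2 difference of -0.25 (limma adjusted p = 0.749).

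TXNIP, the best-known gene driven by MondoA and ChREBP, was far lower in the GOLPH3 libraries. It had 2, 2 and 0 reads in GOLPH3 replicates 1 to 3 and 348, 69.0 and 294 normalized reads in Vector replicates 1 to 3 (fitted log2 difference -6.57, limma adjusted p = 0.000112). It was called in all 13 alternatives that tested it. TXNIP was the 1 gene called among 6 MondoA and ChREBP targets tested, where 4.12% of all genes tested were lower. The glycolytic enzyme HK2 and the arrestin ARRDC3 followed, with log2 differences of 0.39 and 0.36 (limma adjusted p = 0.522 and 0.643). PKLR was at 0 in every library. The HEK293-like and mesenchymal markers given above were low in the same libraries, and their part in the TXNIP difference was not tested.

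Of 15 chromatin cofactors through which MYC activates or represses, 0 were called by limma, and 0 had an unadjusted p under 0.05, where 17.6% of all genes did. ZBTB17, which encodes the MYC partner MIZ1, had the smallest p, with 952 ± 374 against 549 ± 267 normalized reads (SD, n = 3) and a log2 difference of 0.86 (limma adjusted p = 0.37). RUVBL2 and EP400, of the TIP60 complex, had log2 differences of 0.55 and 0.30 (limma adjusted p = 0.512 and 0.616). Of 16 corepressor genes of the SIN3 and related complexes, 0 were called and 4 had an unadjusted p under 0.05, 2 in each direction. The histone chaperones RBBP7 and RBBP4 had log2 differences of -0.73 and -0.75 (limma adjusted p = 0.15 and 0.179).

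Among 20 regulators of MYC protein stability, 2 were lower and 0 higher, against 4.12% and 0.953% of all genes tested, and 0 to 2 were lower with 1 library left out. SKP2, an F-box protein that ubiquitinates MYC and the cell cycle inhibitor p27, had 977, 286 and 571 normalized reads in GOLPH3 replicates 1 to 3. Vector replicates 1 to 3 had 1764, 2033 and 1916, all above the GOLPH3 libraries. Its log2 difference was -1.81 (standard error 0.40, limma adjusted p = 0.0188). USP28, a deubiquitinase that counters FBXW7 on MYC, had 655, 371 and 392 against 1025, 1035 and 1098 normalized reads in the same order. Its log2 difference was -1.20 (standard error 0.31, limma adjusted p = 0.0435).

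These 2 genes act on MYC in opposite ways, and both calls were close to the threshold. SKP2 was called in 10 of 14 alternatives and lost where GOLPH3 replicate 2 (limma adjusted p = 0.0508), GOLPH3 replicate 3 (0.0534), Vector replicate 1 (0.0675) or Vector replicate 3 (0.0737) was left out. USP28 was called in 5 of 14, with an adjusted p of 0.0513 by edgeR and, by limma, 0.154, 0.176, 0.183, 0.085 and 0.132 without GOLPH3 replicates 2 and 3 and Vector replicates 1, 2 and 3. CIP2A, which protects MYC from the phosphatase PP2A, had a log2 difference of -0.98 (limma adjusted p = 0.178).

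Among targets that MYC activates, 20 were genes of the ribosome and nucleolus. Of these, 0 were called and 0 had an unadjusted p under 0.05, where 5.07% and 17.6% of all genes tested did. Their median log2 difference was 0.01. The ribosome biogenesis factors RRS1 and BOP1 had log2 differences of 0.71 and 0.78 (limma adjusted p = 0.301 and 0.339). NPM1, a major nucleolar protein, had -0.63 (limma adjusted p = 0.376). With the P number as a block, where 9.93% of all genes were higher, 5 of the 20 were higher and 0 lower.

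Of 32 targets in metabolism, growth and the cell cycle, 1 was lower and 0 higher, against 4.12% and 0.953% of all genes tested. The median log2 difference of the 32 was 0.11. The called gene was CCND2, which encodes cyclin D2. It had 0, 0 and 2 reads in GOLPH3 replicates 1 to 3 and 776, 348 and 687 normalized reads in Vector replicates 1 to 3 (fitted log2 difference -8.61, limma adjusted p = 4.02e-06). CCND2 was called in all 13 alternatives that tested it, and again the part of the HEK293-like and mesenchymal markers was not tested. The phosphatase CDC25A and the purine enzyme PAICS had log2 differences of -0.98 and -0.67 (limma adjusted p = 0.0862 and 0.25).

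ODC1, the rate-limiting enzyme of polyamine synthesis and a direct MYC target, had 6806, 15194 and 8070 normalized reads in GOLPH3 replicates 1 to 3. Vector replicates 1 to 3 had 10668, 8959 and 6314. GOLPH3 replicate 2 was the highest library here as it was for MYC, and the log2 difference of 0.16 (limma adjusted p = 0.864) turned to -0.19 without it. Other targets of this list did not follow MYC in that library. PTMA, LDHA and HSPD1 were lowest there, at 13664, 12027 and 16748 normalized reads. The share of all genes that were highest in GOLPH3 replicate 2 was not counted. TERT, the telomerase catalytic subunit, had 193, 129 and 197 against 117, 105 and 290.1 normalized reads in the same order, with overlapping groups (log2 difference 0.15, limma adjusted p = 0.893).

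Genes that MYC represses had the largest median of the target lists. Of 18 tested, 14 had a log2 difference above 0 and 4 below, with a median of 0.79. NDRG1 was higher and GAS1 was lower, and the other 16 were not called, where 0.953% of all genes were higher and 4.12% lower. The number higher was 0 to 4 with 1 library left out, 4 of them without GOLPH3 replicate 1, where 1.6% of all genes were higher. With the P number as a block 11 were higher and 4 lower, where 9.93% and 13% of all genes were. NDRG1, a stress and differentiation gene, had 2756, 2896 and 8581 normalized reads in GOLPH3 replicates 1 to 3 and 1199, 1444 and 1229.8 in Vector replicates 1 to 3. The groups did not overlap, and GOLPH3 replicate 3 was far above the rest. The log2 difference was 1.67 (standard error 0.40, limma adjusted p = 0.0328). It was called in 8 of 14 alternatives, and without GOLPH3 replicate 3 the difference was 1.13 (limma adjusted p = 0.0881).

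GAS1, a growth arrest gene, had 4.55 ± 3.86 normalized reads in the GOLPH3 group against 175.7 ± 162 (SD, n = 3) in the Vector group (log2 difference -4.90, limma adjusted p = 0.0016). DUSP2 had a log2 difference of 1.17 (limma adjusted p = 0.0776, and 0.0295 by DESeq2). CDKN1A, which encodes the cell cycle inhibitor p21, had 5802, 13132 and 9892 normalized reads in GOLPH3 replicates 1 to 3 and 6688, 3029 and 4642 in Vector replicates 1 to 3. As for MYC, GOLPH3 replicate 2 was the highest library and Vector replicate 2 the lowest, and the groups overlapped. The share of all genes with these same highest and lowest libraries was not counted. The log2 difference was 1.00 (standard error 0.38, limma adjusted p = 0.182). Blocking on the P number moved it to 1.03 (limma adjusted p = 3.5e-05), in a fit with 1 residual degree of freedom that called 9.93% of all genes tested as higher.

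**Figure D5:**
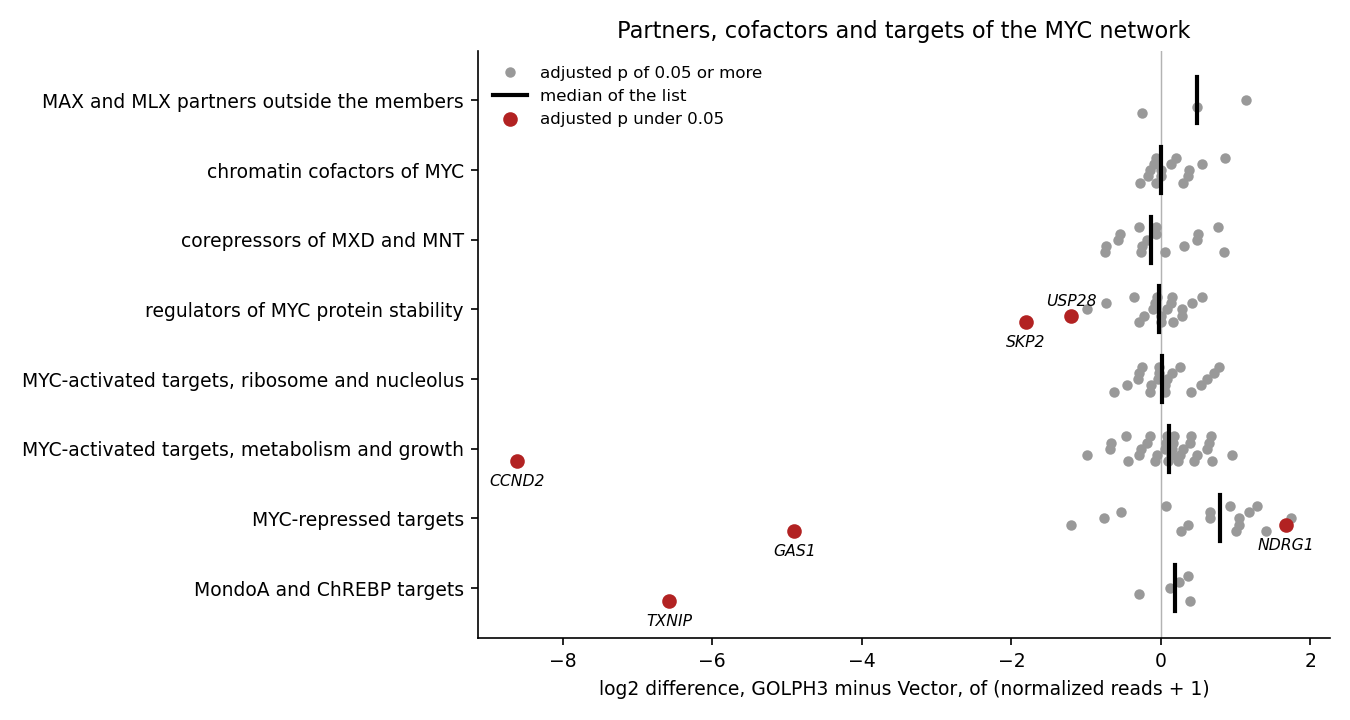
Log2 difference (GOLPH3 minus Vector, normalized reads + 1) of each gene tested in 8 lists of partners, cofactors, regulators and targets, with the list median as a bar and genes called by limma in red. The medians of 6 of the 8 lists lie between -0.13 and 0.18, those of the MYC-repressed targets and of the 3 partners lie at 0.79 and 0.48, and 6 genes were called.

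Of the neighbours of MYC and MYCN in the genome, 5 could be tested and 0 were called, where 5.07% of all genes tested were. PVT1, a long noncoding RNA just downstream of MYC, had 1164, 2254 and 1740 normalized reads in GOLPH3 replicates 1 to 3. Vector replicates 1 to 3 had 1027, 1151 and 669, and the groups did not overlap, though GOLPH3 replicate 1 and Vector replicate 2 nearly met. GOLPH3 replicate 2 was the highest library for PVT1 as for MYC, and the share of all genes that were highest there was not counted. The log2 difference was 0.84 (standard error 0.33, limma adjusted p = 0.205). Blocking on the P number gave 1.26 (limma adjusted p = 1.42e-07), in a fit with 1 residual degree of freedom that called 9.93% of all genes tested as higher. CASC11, on the other side of MYC, had 3, 14 and 4 reads in GOLPH3 replicates 1 to 3 against 2, 2 and 5 (limma adjusted p = 0.584). DDX1, an RNA helicase beside MYCN, had 2764 ± 383 against 4010.2 ± 494 normalized reads (SD, n = 3) and a log2 difference of -0.54 (limma adjusted p = 0.332), and its groups did not overlap. Among all genes tested, the GOLPH3 libraries lay wholly above the Vector libraries in 9.2%, as for PVT1, and wholly below in 12.8%, as for DDX1.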

How the data were processed

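RNA sequencing libraries of HCT-116 cells, 3 GOLPH3 and 3 Vector, were grouped by their titles. The submitters' processing notes name GRCh38, fastp 0.20.0, HISAT2 2.1.0, Cufflinks, featureCounts 1.6.1 and DESeq2, with no role or order. The signal deposited by the authors was found to be read counts divided by 1 size factor per library, without a correction for length: at least 99.98% of the values in each library were whole multiples of a step (tolerance 0.02) between 0.825 and 1.10. Repeated rows of a gene identifier (44) were summed. Of 60546 identifiers, 58367 (96.4%) were matched to GENCODE 29 for positions and exon lengths.

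limma 3.58.1 in R 4.3.3, with a mean-dependent prior, was applied to log2(value + 1) of 26536 genes with at least 1 in at least 3 libraries, with Benjamini-Hochberg adjustment over all of them and a threshold of 0.05. With 3 libraries a group an exact permutation test cannot go below 0.1. Whole reads were recovered, and edgeR 4.0.16 called 1113 of 16908 genes and DESeq2 1.42.0 1991 of 22947 on them. Libraries of a group differed by more than sampling noise (chi-square per degree of freedom 74.92 or more). Mitochondrial genes took 4.41% to 9.97% of reads. Scripts were tested on simulated counts.

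Further alternatives were quantile normalization, other filters, a pseudocount of 0.1, replicate and P number blocks, and each library left out. Of each list, the 3 genes with the smallest p and called genes are named (some results are not reported here), with the members, GOLPH3, CDKN1A, ODC1, TERT, CCND2, TXNIP, MGA, MLXIP and MLXIPL. PRELID1, RAB24, SNRNP27, PSMC3IP, CRABP2, ZIC2, UCHL1, HAND1, SALL1, TWIST2, VIM, PKLR, KRT20, CDX1, CDX2, PTMA, LDHA, HSPD1 and MYCNOS were named after their values were seen. The members and lists were chosen with earlier results of these data known.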

Additional observations from a re-analysis of the deposited data

How the results depend on the processing

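Among all genes the count of calls was 1346, and it moved to 405 when a value of at least 1 was asked of every library and to 6082 (2636 higher, 3446 lower) with the P number as a block, which leaves 1 residual degree of freedom. With 1 library left out it lay between 459 (without Vector replicate 1) and 1528, with 481 without Vector replicate 3, 881 without GOLPH3 replicate 3 and 895 without Vector replicate 2. Of the members, 1 was called, against 0 with the filter on every library and with edgeR, where MYCN was not tested, 2 with the P number as a block (MYC higher, MYCN lower) and 0 to 1 with 1 library left out. The replicate numbers did not pair the samples, since deviations of same-numbered libraries correlated at -0.23, -0.15 and 0.26, and the replicate block gave 1081 calls among all genes and 1 among the members (MYCN, limma adjusted p = 0.0463). By P number, deviations correlated at 0.26 in the P12 and 0.26 in the P13 libraries. The P8 and P11 libraries, which share no number, correlated at 0.33. Deviations cancel within each group, so this value follows from those of the other libraries and is no separate sign for or against a pairing. The labels do not say what P marks. Signs changed for MXD4 (-0.089 with DESeq2, -0.092 with edgeR, -0.47 with the P number as a block, -0.40 to 0.90 with 1 library left out), ODC1 (-0.004 with quantile normalization, -0.19 to 0.39), TERT (-0.21 with the P number as a block, -0.12 to 0.61), MYCL (-0.14 to 0.25), MXI1 (-0.34 to 0.089) and MGA (-0.45 to 0.002), of which 0 were called in any setting. Reads of MYCN, 3 to 38 where present, limit the precision of its difference.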
